A study of Rattus norvegicus with 19 samples.

Results

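The untreated cultures are the 5 RNA sequencing libraries labelled control WT, out of 19 in the series, and they were taken by that label alone. They were primary cultures grown from the ventral cord of wild-type Sprague-Dawley rat embryos at embryonic day 14, and they received no agent. The other 14 libraries come from cultures of the same strain, genotype and tissue: 5 received 100 μM of synthetic long-chain polyphosphate (polyP), and 9 received medium that mouse astrocytes had conditioned, which expressed human SOD1 either as wild type (wtSOD1-ACM, 4 libraries) or as G93A (mutSOD1-ACM, 5 libraries), each for 90 min. All 19 shared a growth medium with 2% horse serum and 45 μg/ml of chick leg extract (embryonic day 18), so the untreated cultures also grew in serum and extract. The labels disagree on the age of the cultures, with 7 days in vitro in the tissue field, 4 days in the treatment protocol and 7 to 9 days in the growth protocol. The labels speak of 4 to 5 independent cultures per condition and the series design of quadruplicates, and they do not say whether the cultures came from the same litter or day. The question here is what these cultures express before any treatment, and how far 5 cultures made in the same way resemble each other.

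The embryonic spinal cord holds neurons that arise from ordered progenitor domains: motor neurons and ventral interneurons near the floor plate, which secretes Sonic hedgehog, and sensory interneurons dorsally. Radial glia line its central canal and give rise to neurons first and to astrocytes and oligodendrocytes later, while microglia, fibroblasts of the meninges and vessel cells come from outside the neural tube. Hox genes give cells their position along the body axis, with low paralogue groups active in the hindbrain and neck and high groups in the trunk and tail. A culture of cord tissue can carry all of these cells, and polyadenylated RNA of the whole dish measures their mixture.

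The table holds FPKM (fragments per kilobase of transcript, scaled to library depth) for 15597 genes, so levels of different genes are per length. Values of single genes are given below in FPKM in the order of cultures 1 to 5. Depth relative to the median library was 0.763 to 1.26 in the untreated cultures and 0.763 to 1.35 over the series, and the absolute depth is unknown. Pearson's r of log2(FPKM + 1) across genes was highest between cultures 4 and 5, at 0.994, and lowest between culture 2 and each of them, at 0.954. Culture 3 was nearer to cultures 1 (0.983) and 2 (0.985) than to cultures 4 (0.967) and 5 (0.969). Culture 1 was nearer to cultures 4 (0.972) and 5 (0.975) than to culture 2 (0.966), so cultures 1, 2 and 3 were not each nearest to one another. Average-linkage clustering of all libraries of the series on such correlations, cut into 2 sets, still put cultures 1, 2 and 3 together. Cultures 4 and 5 fell into the other set. Ribosomal RNA, which a poly(A) library should largely exclude, made up 1.10%, 1.15%, 0.628%, 0.103% and 0.151% of the summed FPKM in cultures 1 to 5. The labels name no batch, and the division of cultures 1 to 3 from 4 and 5 used below was found after the data were examined. Because the samples are whole dishes, fewer cells of a type and less RNA per cell cannot be told apart in any value below.

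The most abundant transcripts were those of the cytoskeleton and of translation. In all 5 cultures 11073 genes reached 1 FPKM, 6779 reached 10, 666 reached 100 and 15 reached 1000, while 563 genes were listed at 0 throughout. Tuba1a, the α-tubulin of growing neurons, had the highest mean, at 4672, 3831, 4843, 4961 and 5317 FPKM. Eef1a1, the elongation factor that brings tRNA to the ribosome, followed at 3298, 2962, 3370.0, 2656 and 2989.6 FPKM, and the cytoplasmic actins Actb and Actg1 averaged 2795 ± 184 and 2643 ± 216 FPKM (SD, n = 5). These 4 genes lay within 1.39 times between the highest and the lowest culture.

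Further genes of the 20 most abundant fell into a few kinds. Tubb2b and Tubb5, neuronal and general β-tubulins, averaged 1799.7 ± 219.8 and 1133 ± 123 FPKM, and Vim, the intermediate filament of radial glia and mesenchymal cells, 1748 ± 106 FPKM. The actin-binding peptides Tmsb4x and Tmsb10 averaged 1707 ± 173 and 1620.0 ± 382 FPKM, and the actin-severing protein Cfl1 1230.3 ± 94.01 FPKM. Ubb (ubiquitin), Ppia (cyclophilin A), Rplp1 and Rps2 (ribosomal proteins), Ckb (brain creatine kinase), Ftl1 (ferritin light chain) and Gapdh (a glycolytic enzyme) had means of 1089 to 1534 FPKM. Nnat, an imprinted proteolipid of developing neurons, had 1401, 829, 1041, 1131 and 1321 FPKM. Thbs1, the secreted matrix protein thrombospondin 1, had 815, 1520.2, 1137, 1322 and 1088 FPKM. The named gene of this group that differed most was Rn28s, a ribosomal RNA of the large subunit, at 4452, 4055, 2612, 284 and 407 FPKM, with cultures 4 and 5 far below the others. A locus known only by its identifier ranked just after Rn28s and is not named.

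By family, 82 genes of cytosolic ribosomal proteins took 9.38% ± 0.622 of the summed FPKM (SD, n = 5), 14 tubulin genes 2.24% ± 0.207, 6 actin genes 1.30% ± 0.0669 and 27 collagen genes 0.391% ± 0.0429. The 100 most abundant genes together took 19.97% ± 0.811. The spread between cultures was small beside these shares, in contrast to ribosomal RNA (0.628% ± 0.501 over 5 genes).

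**Figure D1:**
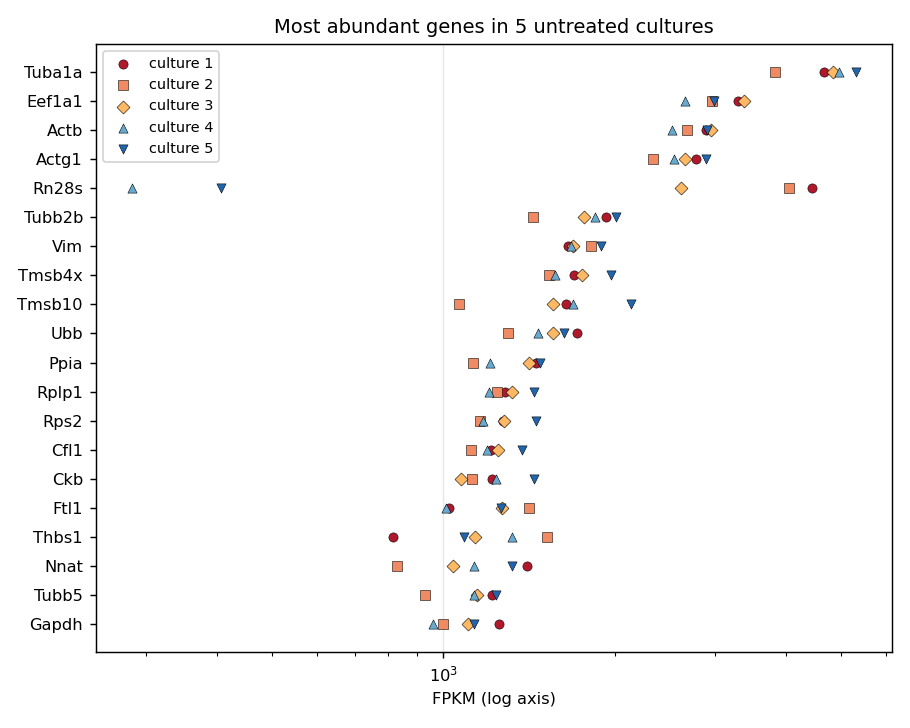
FPKM (log axis) of the 20 most abundant named genes in the 5 untreated cultures, 1 point per culture, ordered by their mean. Tuba1a led in cultures 1, 3, 4 and 5 and came after Rn28s in culture 2, and Rn28s is the gene whose cultures 4 and 5 (284 and 407 FPKM) lie far left of cultures 1, 2 and 3.

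Pan-neuronal genes were high in every culture, and their sum was lowest in culture 2. All 17 members of a pan-neuronal list had a mean of at least 1 FPKM, and none differed 2-fold between cultures, taken as the ratio of the highest to the lowest FPKM + 1. For comparison, 8.46% of the 11653 genes with a mean of at least 1 FPKM did so. For so short a list that is no clear difference. Tubb3, the neuronal β-tubulin, had 602, 361, 544, 624 and 676 FPKM. Stmn2, a microtubule regulator of growth cones, had 439, 224, 364, 358 and 395 FPKM. Both had their lowest value in culture 2, as did Uchl1, a deubiquitinating enzyme abundant in neurons (319.6 to 606 FPKM), and Gap43, a growth-cone protein (150.1 to 268 FPKM). Rbfox3, the nuclear antigen of mature neurons known as NeuN, was lower, at 27.9 to 40.4 FPKM. The list summed to 1862 FPKM in culture 2 and to 2696 to 3092 FPKM in the other 4. Culture 2 also had the highest microglia and macrophage sum, 817 FPKM, and the part of such cells in its lower neuronal levels was not tested.

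Genes of inhibitory transmission were present in all cultures. Gad1, the main enzyme of GABA synthesis in cell bodies, had 39.2, 33.9, 43.03, 52.1 and 49.05 FPKM. Slc32a1, which loads GABA and glycine into vesicles, had 67.4, 49.1, 48.99, 68.2 and 60.9 FPKM. Slc6a5, the transporter of glycinergic terminals, had 36.5, 32.3, 38.1, 40.7 and 35.8 FPKM. Genes of both transmitters were thus listed in every culture, and Gad2, the GABA enzyme of terminals, ranged from 17.6 to 28.01 FPKM. Neuropeptides were the most abundant members of this list. Sst, somatostatin, had 226, 103, 152, 122 and 144 FPKM. Npy, neuropeptide Y, had 108, 43.4, 64.2, 72.8 and 78.5 FPKM, and Penk, proenkephalin, ranged from 50.1 to 83.8 FPKM. Culture 1 was highest and culture 2 lowest for all 3 peptides. Slc6a5 was chosen after its values were seen.

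Excitatory genes were present as well. Slc17a6, the vesicular glutamate transporter of spinal neurons, had 28.9, 23.1, 27.5, 25.96 and 23.9 FPKM, or 25.9 ± 2.41 (SD, n = 5). Slc17a7, the transporter of cortical neurons, did not exceed 0.08 FPKM. Tac1, which encodes substance P, had 79.9, 26.7, 43.9, 53.6 and 55.3 FPKM. Its highest value was in culture 1 and its lowest in culture 2, as for the inhibitory peptides.

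Several defining genes of motor neurons were at or near 0, although the tissue is labelled ventral spinal cord. Chat, which makes acetylcholine, had 0.45, 0.77, 0.58, 0.96 and 1.21 FPKM. Slc18a3, its vesicular transporter, had 1.10, 0.62, 0.82, 1.55 and 1.32 FPKM. The homeobox factors Isl1, Isl2 and Mnx1, chosen after their values were seen, did not exceed 0.31, 0.17 and 0.05 FPKM. Higher members of this list are not restricted to motor neurons: Foxp1, a forkhead factor (11.6 to 16.5 FPKM), Ache, acetylcholinesterase (7.55 to 13.4 FPKM), and Ret, the receptor subunit for GDNF (9.31 to 10.5 FPKM). Chodl, a membrane lectin of fast motor neurons in mice, ranged from 6.95 to 9.09 FPKM. Of 13 list members in the table, 8 had a mean of at least 1 FPKM, and not all of these are named here.

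Monoaminergic and sensory neuron genes were low. Of 8 monoaminergic genes 3 had a mean of at least 1 FPKM, and the serotonergic enzyme Tph2 and the serotonin transporter Slc6a4 did not exceed 0.77 and 1.03 FPKM. Th, tyrosine hydroxylase, had 1.98, 1.30, 1.76, 3.86 and 3.61 FPKM and was higher in cultures 4 and 5. Of 7 sensory ganglion genes 2 had such a mean: Calca, the precursor of CGRP (5.76 to 13.7 FPKM), and Avil, advillin (0.73 to 1.16 FPKM). The capsaicin receptor Trpv1 stayed at or below 0.35 FPKM.

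Transcription factors of interneurons covered both dorsal and ventral classes. Of the dorsal list, Pax2, a factor of inhibitory interneurons, had 28.1, 19.5, 26.3, 37.8 and 38.5 FPKM. Lbx1, the selector of dorsal association neurons, had 27.2, 16.2, 24.3, 21.3 and 21.7 FPKM. Culture 2 was lowest for both, and for Drgx, a homeobox factor of nociceptive circuits (5.08 to 8.81 FPKM). Lmx1b, of excitatory dorsal neurons, ranged from 16.04 to 21.3 FPKM. Of the ventral list, Lhx1 and Lhx5, which mark several interneuron classes, ranged from 6.21 to 13.5 and from 6.49 to 10.1 FPKM. Gata3, a V2b factor chosen after its values were seen, had 3.77, 3.51, 3.24, 6.47 and 5.83 FPKM. Cultures 4 and 5 were highest for Gata3. Summed over the members in the table, the dorsal list had 68.2 to 101.1 FPKM (12 genes) and the ventral list 40.4 to 67.4 FPKM (13 genes), with 2 genes of the ventral list and none of the dorsal list differing 2-fold.

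Progenitor genes of the floor plate and ventral domains were present. Shh, the floor plate signal, had 53.1, 59.99, 38.2, 45.4 and 37.4 FPKM. Foxa2, the floor plate forkhead factor, ranged from 9.13 to 11.8 FPKM. Olig2, of the motor neuron and oligodendrocyte domain, had 23.5, 27.7, 35.96, 10.2 and 12.9 FPKM. Nkx2-2, of the neighbouring domain, had 17.7, 20.4, 29.1, 8.74 and 9.53 FPKM. Both were lower in cultures 4 and 5 than in each of the others, whereas Nkx6-1, another ventral factor, was highest there (9.80 to 13.3 FPKM in all). Pax6, of the intermediate domains and radial glia, ranged from 8.64 to 11.2 FPKM. Of the dorsal domain factors, the roof and alar plate genes Pax3, Pax7 and Lmx1a stayed at or below 1.22, 1.13 and 2.49 FPKM. Dorsal progenitor genes summed to 25.5 to 30.2 FPKM and ventral ones to 104.8 to 150.3 FPKM. Most of the dorsal sum came from members not named here, and 6 of 14 dorsal members had a mean of at least 1 FPKM.

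Radial glial genes were abundant. Their sum of 3245 to 3713 FPKM consists mostly of Vim and Fabp7, which other cells also express. All 14 members had a mean of at least 1 FPKM, and 1 of them differed 2-fold. Fabp7, the lipid-binding protein of radial glia, had 1207, 844, 875, 847 and 1143 FPKM. Nes, nestin, ranged from 165 to 217 FPKM, and Slc1a3, the glutamate transporter GLAST, from 165 to 327 FPKM. Among astrocyte genes Gfap and Aqp4 were lower, whereas Apoe, Id3 and Sparcl1, given below, lay above both. Gfap, the intermediate filament of astrocytes, had 18.6, 36.4, 24.3, 14.1 and 18.5 FPKM. Aqp4, their water channel, had 11.1, 15.4, 12.4, 5.67 and 7.37 FPKM. Culture 2 was highest for both. Cell division genes were present, and none of 20 differed 2-fold, against 8.46% of all genes, which for so short a list is no clear difference: Mki67, the proliferation antigen, ranged from 12.8 to 24.4 FPKM and Pcna, the replication clamp, from 97.2 to 126 FPKM.

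Apoe, the lipid carrier on the astrocyte list, differed more than its neighbours, at 527, 1907, 885, 256 and 298 FPKM. Its order over the cultures was 2, then 3, then 1, with 4 and 5 lowest, as for the macrophage genes described below. Macrophages also make it, and their part in its level was not tested. Id3, an inhibitor of differentiation factors, ranged from 121 to 167 FPKM and Sparcl1, a secreted matrix protein, from 112 to 179 FPKM. The astrocyte list summed to 1165 to 3159 FPKM. Of its 15 members with a mean of at least 1 FPKM, 5 differed 2-fold, against 8.46% of all genes.

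**Figure D2:**
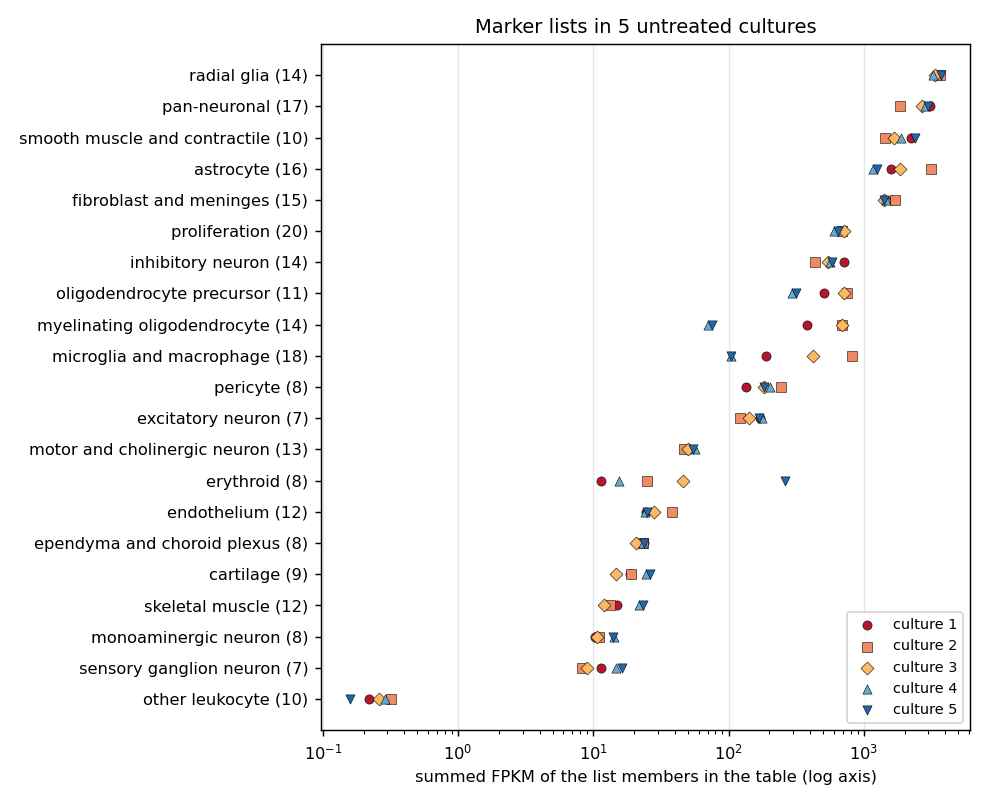
Summed FPKM (log axis) of 21 marker lists in the 5 untreated cultures, 1 point per culture; the number of list genes in the table stands in brackets. Radial glial sums, mostly Vim and Fabp7, lie close together (3245 to 3713 FPKM), while the myelinating oligodendrocyte (70.5 to 694 FPKM), microglia and macrophage (105 to 817 FPKM) and erythroid sums (11.3 to 261 FPKM) are spread widely. The erythroid sum leaves out the globin Hba1, which was not on that list.

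Oligodendrocyte genes split the cultures. Of 11 precursor genes 10 differed 2-fold, against 8.46% of all genes, and their sum was 505, 754, 716, 296 and 314 FPKM. Sox10, the factor of the oligodendrocyte and neural crest lineages, had 25.5, 55.6, 63.7, 7.92 and 8.73 FPKM. Pdgfra, the precursors' growth factor receptor, had 14.98, 32.7, 30.9, 5.59 and 6.55 FPKM. Bcas1, of early myelinating cells, had 67, 107, 124, 14.5 and 17.6 FPKM. All 3 were lowest in cultures 4 and 5, as was the NG2 proteoglycan Cspg4 (2.98 to 14.3 FPKM). Ptprz1, a receptor phosphatase, was less uneven (102 to 179.6 FPKM), as were Olig1 (49.2 to 103 FPKM) and the proteoglycan Bcan (49.3 to 113 FPKM).

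Myelin genes split them further. Of 14 members 10 had a mean of at least 1 FPKM, and 7 of these differed 2-fold, against 8.46% of all genes. The list summed to 381, 694, 692, 70.5 and 75.0 FPKM. Mbp, myelin basic protein, had 171, 372, 348, 7.82 and 9.62 FPKM. Mag, the glycoprotein of the inner myelin layer, had 11.5, 30.6, 22.6, 0.27 and 0.44 FPKM. For these genes cultures 4 and 5 were below each other culture, as for Cnp, an enzyme of non-compact myelin (21.7 to 156 FPKM), and Ugt8, of galactolipid synthesis (4.50 to 23.8 FPKM). Mog, a protein of the myelin surface, did not have that order, at 12.4, 10.8, 13.4, 16.4 and 14.4 FPKM. The ribosomal RNA Rn28s was also lowest in cultures 4 and 5, at 284 and 407 FPKM, and its part in these differences was not tested.

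Schwann cell genes had another order. Ngfr, the low-affinity neurotrophin receptor of immature Schwann cells, had 7.62, 21.8, 20.6, 14.2 and 13.2 FPKM, highest in cultures 2 and 3 and lowest in culture 1. Prx, periaxin, was even (5.15 to 6.62 FPKM), and Pmp2, a lipid-binding protein of myelin, was highest in culture 1 and lowest in culture 3 (2.83 to 7.91 FPKM). Of 10 list genes 6 differed 2-fold, against 8.46% of all genes. Fabp7, which radial glia share, makes up most of this list's sum, so the sum is not given.

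Microglia and macrophage genes varied together. Of 18 members 17 had a mean of at least 1 FPKM, and 16 of these differed 2-fold, against 8.46% of all genes. The sum was 188, 817, 420, 105 and 105 FPKM. C1qb, a chain of complement C1q, had 19.8, 98.4, 47.8, 6.74 and 7.29 FPKM. The other chains C1qa and C1qc ranged from 5.27 to 87.9 and from 4.93 to 88.2 FPKM. Culture 2 was highest for all 3 chains, culture 3 next and then culture 1. Tyrobp, the adaptor of activating receptors, had 21.1, 92.7, 51.9, 9.27 and 12.2 FPKM. Aif1, the protein known as Iba1, had 10.5, 57.3, 29.97, 7.26 and 6.52 FPKM. Cx3cr1, the fractalkine receptor, had 6.51, 32.8, 17.7, 4.27 and 4.16 FPKM. All of these shared the order of the C1q genes. Other leukocyte genes were near 0: none of 10 had a mean of 1 FPKM, Cd3e and Cd3d were at 0 in 4 of the 5 cultures, and the list summed to at most 0.32 FPKM.

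Fibroblast and contractile genes were abundant. Col1a1, a chain of collagen I, had 437, 388, 329, 286 and 287 FPKM. Col3a1, collagen III, had 350.1, 254, 226, 242 and 244 FPKM. Fn1, fibronectin, had 399, 617, 481, 604 and 567 FPKM. Culture 1 was highest for both collagen genes and for Col1a2 (154 to 315 FPKM), and lowest for Fn1. The fibroblast list summed to 1412 to 1693 FPKM. Of its 14 members with a mean of at least 1 FPKM, 7 differed 2-fold, against 8.46% of all genes. Acta2, smooth muscle actin, had 704, 412, 476, 564 and 742 FPKM. Tagln, transgelin, had 1035, 728, 798, 891 and 1111 FPKM. Culture 2 was lowest for both, and for Tpm2, a tropomyosin (119 to 229 FPKM), and Myl9, a myosin light chain (97.95 to 156 FPKM). Myh11, the myosin of mature smooth muscle, was lower, at 13.3 to 16.8 FPKM.

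Endothelial genes were mostly low, and pericyte genes were mixed. Pecam1, a junction protein that defines endothelium, had 0.23, 0.86, 0.32, 0.10 and 0.20 FPKM. Cdh5, its cadherin, had 0.19, 1.12, 0.73, 0.09 and 0.14 FPKM. Both were highest in culture 2. Of 12 endothelial genes 4 had a mean of at least 1 FPKM: the VEGF receptors Flt1 (9.03 to 10.7 FPKM) and Kdr (1.37 to 3.10 FPKM), the TGF-β co-receptor Eng (5.31 to 11.6 FPKM) and the adhesion protein Esam (3.87 to 7.37 FPKM). The pericyte genes Pdgfrb (18.4 to 27.5 FPKM), Notch3 (18.02 to 29.3 FPKM) and Mcam (88.7 to 168 FPKM) were higher, while Rgs5, a defining pericyte gene, did not exceed 0.18 FPKM. Myod1 of skeletal muscle was at most 0.17 FPKM and Ttr of choroid plexus at most 0.25 FPKM. Col2a1, of cartilage, had 6.56, 6.58, 3.13, 12.3 and 12.1 FPKM. Foxj1, the factor of motile cilia in ependyma, was even, at 13.6 to 17.1 FPKM.

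Hox genes of the trunk had the highest levels of their family. Hoxb8 led at 287, 185, 259, 282 and 274 FPKM. Hoxb9 followed at 214, 148, 188, 196 and 179.7 FPKM. Hoxc8 came next at 74.5, 44.6, 62.2, 75.3 and 76.7 FPKM. Hoxb8 exceeded Hoxb9 in each culture, although their ranges over the cultures overlapped, and Hoxb9 lay above Hoxc8 with no overlap. Hoxb5 had 43.7, 34.4, 40.9, 68.2 and 67.2 FPKM, which overlapped with Hoxc8. Hoxb7 ranged from 32.8 to 50.4 FPKM, Hoxa6 from 32.4 to 41.4 FPKM, Hoxc9 from 22.4 to 39.4 FPKM, Hoxa7 from 13.9 to 19.6 FPKM, Hoxd9 from 8.19 to 12.1 FPKM and Hoxc5 from 3.02 to 5.61 FPKM. Members of paralogue groups 5 to 8 summed to 347 to 535 FPKM (7 genes), those of groups 9 to 13 to 224 to 300.3 FPKM (12 genes) and those of groups 1 to 4 to 79.6 to 137.6 FPKM (8 genes).

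The caudal end of the Hox series separated the cultures. Hoxc10, a lumbar gene, had 23.1, 21.4, 32.9, 27.7 and 27.1 FPKM, with cultures 4 and 5 between the others. Hoxd10 had 10.4, 9.15, 13.1, 8.69 and 8.68 FPKM, slightly lower in cultures 4 and 5. Hoxc11 had 4.59, 4.59, 6.51, 1.29 and 1.05 FPKM. Hoxa11 had 1.62, 1.19, 1.62, 0.47 and 0.43 FPKM. Hoxc12 had 4.74, 7.89, 11.9, 0.34 and 0.22 FPKM. Each of the last 3 was lower in cultures 4 and 5 than in cultures 1, 2 and 3. Group 13 was near 0, with Hoxa13 at most at 0.53 FPKM, Hoxb13 at 0.61 FPKM and Hoxd13 at 0.07 FPKM, and Hoxd12 was at most at 0.18 FPKM.

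The rostral end had the opposite order. Hoxb3 had 32.4, 35.2, 32.3, 51.97 and 44.7 FPKM. Hoxb4 had 9.26, 9.83, 10.6, 17.9 and 16.02 FPKM. Hoxd3 had 7.31, 6.82, 7.25, 15.7 and 14.7 FPKM. Cultures 4 and 5 were above the other 3 for each of these genes, and also for Hoxc4 (14.6 to 29.7 FPKM), Hoxd4 (4.93 to 12.7 FPKM), Hoxa2 (5.69 to 9.39 FPKM) and Hoxb5. Hoxd1 stayed under 1 FPKM. Cultures 4 and 5 thus had more RNA of these low paralogue groups, and less of Hoxa11, Hoxc11 and Hoxc12, than cultures 1 to 3. The level of dissection is not recorded in the labels, and its part in this was not tested.

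Genes of more rostral brain were mostly near 0. Of 12 forebrain and midbrain factors 2 had a mean of at least 1 FPKM. Neurod6, a basic helix-loop-helix factor best known from cortical neurons, had 12.8, 8.06, 15, 11.9 and 12.1 FPKM. Otx1, an anterior homeobox factor, ranged from 2.04 to 3.11 FPKM. Pax5, of the midbrain and hindbrain border, did not exceed 1.05 FPKM, Nkx2-1 0.55 FPKM, Tbr1 0.36 FPKM and En2 0.32 FPKM. Emx2, Six3, Six6, Otx2 and Hesx1 were at most at 0.09 FPKM.

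**Figure D3:**
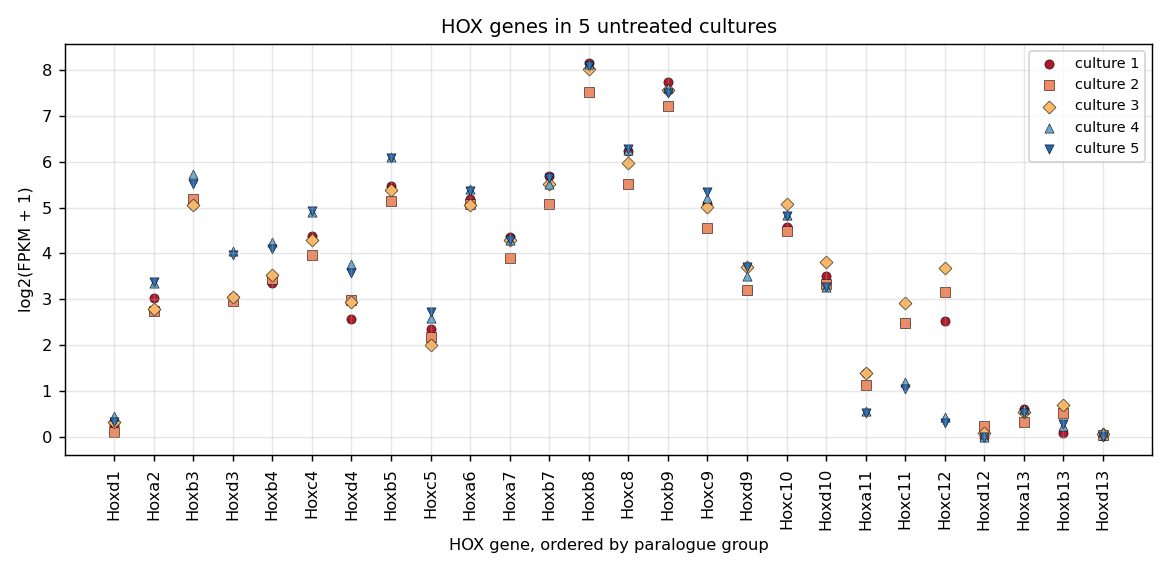
Levels of the Hox genes, as log2(FPKM + 1), in the 5 untreated cultures, with genes ordered by paralogue group along the axis and 1 point per culture. Hoxb8 and Hoxb9 peak in every culture, cultures 4 and 5 lie above the others from Hoxa2 to Hoxb5, and they lie below them for Hoxa11, Hoxc11 and Hoxc12.

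Receptor and transporter genes of synapses were present. Of the chloride carriers, Slc12a5 (KCC2), which extrudes chloride in maturing neurons, had 44.4, 41.9, 39.9, 64.2 and 57.4 FPKM. Slc12a2 (NKCC1), which imports it, had 21.7, 29.7, 22.9, 22.8 and 20.8 FPKM. Slc12a5 exceeded Slc12a2 in each culture. Of the glycine receptor subunits, Glra2, the embryonic form, ranged from 16.6 to 29.4 FPKM and Glra1, the adult form, from 3.32 to 4.65 FPKM. Of the NMDA receptor subunits, Grin1, which all such receptors contain, ranged from 47.9 to 67.7 FPKM, the juvenile subunit Grin2b from 4.02 to 9.30 FPKM and Grin2a, of mature forebrain synapses, from 1.41 to 2.52 FPKM. Glra2 lay above Glra1 and Grin2b above Grin2a with no overlap. Gria2, the AMPA receptor subunit that limits calcium entry, had 30.6, 42.03, 41.7, 43.9 and 40.8 FPKM, and Grik5, a kainate receptor subunit, ranged from 72.9 to 128 FPKM. All 17 glutamate receptor genes had a mean of at least 1 FPKM, and 1 differed 2-fold. Glra1 and Grin2b were chosen after their values were seen.

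Synaptic vesicle genes, like pan-neuronal genes, had their lowest sum in culture 2 (609 FPKM, against 815 to 884 FPKM in the others), whereas the glutamate receptor sum was lowest in culture 3 and the GABA and glycine receptor sum in culture 5. Vamp2, synaptobrevin, had 140.1, 97.02, 131, 134 and 146 FPKM. Rab3a, a vesicle GTPase, had 120.4, 68.2, 110.3, 109 and 127 FPKM. Syn1, synapsin I, ranged from 45.5 to 72.3 FPKM, again with culture 2 lowest. Nicotinic subunits were led by Chrnb2 (13.4 to 19.1 FPKM) and Chrna4 (13.5 to 21.2 FPKM), which together form the high-affinity brain receptor. Chrna1, the subunit of the muscle endplate, had 2.10, 3.31, 2.25, 7.38 and 7.26 FPKM, higher in cultures 4 and 5.

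Immediate early genes, which activity and serum induce within minutes, were well above 0 without treatment. Fos had 151, 100.5, 163, 94.2 and 107 FPKM. Fosb had 62.01, 50.2, 72.5, 37.1 and 37.9 FPKM. Jund ranged from 114 to 164 FPKM and Junb from 57.8 to 76.7 FPKM. Fosb was lowest in cultures 4 and 5, where Egr1 was highest, so these genes did not share an order. Bdnf, the neurotrophin, had 12.5, 7.68, 9.75, 9.04 and 9.77 FPKM. Its receptor Ntrk2 had 56.8, 52.4, 50.6, 34.5 and 32.2 FPKM and was lower in cultures 4 and 5. Ntrk3, the receptor for neurotrophin 3, was nearly the same in all 5 cultures (12.4 to 12.7 FPKM), while its ligand Ntf3 did not exceed 0.58 FPKM. Vegfa, the vascular growth factor, ranged from 36.3 to 63.6 FPKM and Cntfr, the receptor for ciliary neurotrophic factor, from 33.9 to 57.4 FPKM.

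Genes linked to amyotrophic lateral sclerosis, a motor neuron disease that mutations of SOD1 can cause, were listed in every culture. None of the 17 with a mean of at least 1 FPKM differed 2-fold, against 8.46% of all genes. For a list of this size that is no clear difference. Sod1, the superoxide dismutase, had 221, 169, 196, 195 and 239.6 FPKM. Tardbp, which encodes TDP-43, had 119, 118, 128, 122 and 120.1 FPKM. The RNA-binding proteins Hnrnpa1 and Hnrnpa2b1 averaged 529 ± 36.5 and 634 ± 25.8 FPKM (SD, n = 5).

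Most genes varied little and a minority varied strongly between the 5 cultures. The SD of log2(FPKM + 1) had a median of 0.18 over 11653 genes with a mean of at least 1 FPKM, and a highest value of 2.70, that of Mbp. The first principal component of these genes carried 60.4% of the variance and set culture 2 (loading 0.61) and culture 3 (0.36) against cultures 4 (-0.50) and 5 (-0.50), with culture 1 at 0.036. The second carried 25.3% and set culture 1 (-0.81) against culture 2 (0.47). At the other end, among genes with a mean of at least 10 FPKM, the 10 most even had an SD of at most 0.026. They included Fbxl14, a ubiquitin ligase subunit (14.9 to 15.3 FPKM), Aco1, cytosolic aconitase (29.1 to 30.1 FPKM), Ddx23, a splicing helicase (42.9 to 44.4 FPKM), and Ogdh, a dehydrogenase of the citric acid cycle (45.1 to 46.98 FPKM). Sft2d1, Gfm1, Natd1, Tes and Ntrk3 were among them as well.

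The 20 most variable named genes fell into a few orders over the cultures. Low in cultures 4 and 5 were the oligodendrocyte genes Mbp, Mag and Cldn11 (a tight junction protein of myelin, 10.7, 15.1, 15.7, 1.37 and 0.88 FPKM), and also Gpr17, a receptor of committed precursors, at 32.2, 59.6, 62.2, 4.91 and 5.04 FPKM. Plxnb3, a semaphorin receptor of oligodendrocytes, had 8.19, 29.9, 21.8, 1.28 and 1.46 FPKM and Pnlip, which encodes a pancreatic lipase, 17.1, 27.7, 27.3, 1.06 and 1.36 FPKM. Hoxc12 and Rn28s shared that order. High in culture 2 and next in culture 3 were the C1q genes and Fcrl2, an Fc receptor-like gene, at 27.9, 117, 42.7, 8.36 and 7.51 FPKM.

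High in cultures 2 and 3 alike were Gldn and Postn. Gldn (gliomedin, by which Schwann cells cluster channels at nodes) had 3.40, 51.5, 57.2, 8.76 and 8.14 FPKM, and Postn (periostin, a matrix protein of fibroblasts) 11.3, 149, 136, 23 and 21.9 FPKM. Culture 1 was lowest for both. High in culture 1 alone was Krt18, a keratin of simple epithelia, at 18.1, 0.65, 1.38, 0.56 and 0.76 FPKM. Genes just outside the 20, chosen after their values were seen, went with it: Krt8, its partner keratin, had 15.9, 1.19, 0.65, 0.46 and 0.35 FPKM, Igf2, a fetal growth factor, 139.7, 13.3, 19.3, 14.9 and 18.9 FPKM, and the matrix proteoglycan Lum (lumican) 28.9, 2.26, 3.10, 3 and 3.94 FPKM.

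High in culture 5 alone were the globins. Hba1, an α-globin, had 10.1, 19.8, 36.6, 10.9 and 246 FPKM. Hba2, another α-globin, had 4.08, 8.09, 16.4, 5.22 and 91.5 FPKM. Hbe1, an embryonic β-type globin, had 6.28, 14.2, 25.8, 9.01 and 161 FPKM. Culture 5 was highest for each of the 3, and culture 3 came next. Hbz, an embryonic α-type globin chosen after its values were seen, had 0.96, 2.12, 3, 1.39 and 20.7 FPKM. Hbb, the adult β-type globin of the erythroid list, had 0.57, 2.35, 3.48, 0.60 and 7.07 FPKM, and Alas2, the enzyme of haem synthesis in erythroblasts, at most 0.27 FPKM. α-Globin copies are nearly identical, so reads can be split between them and their single values are uncertain.

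**Figure D4:**
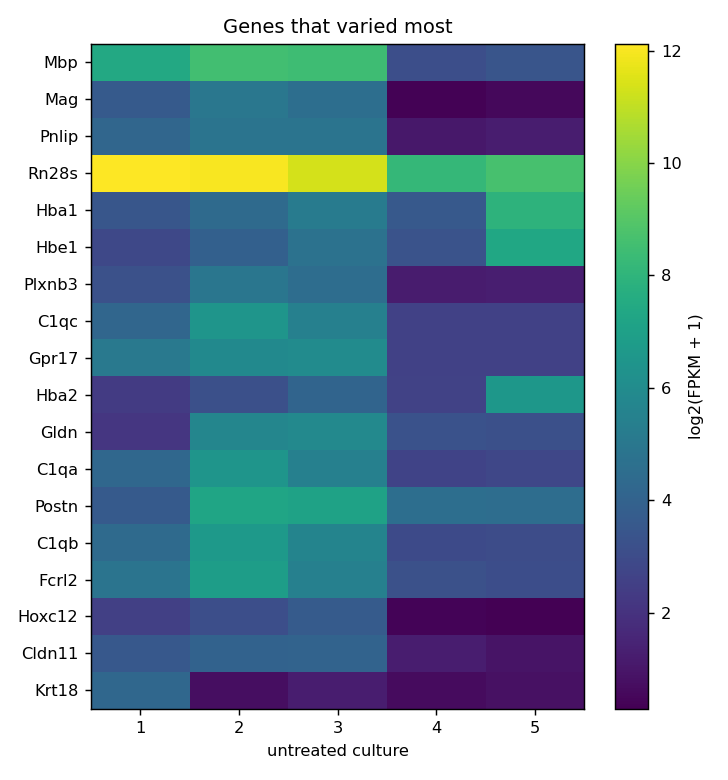
Level of 18 of the 20 named genes with the largest SD of log2(FPKM + 1) in the 5 untreated cultures, 1 column per culture, with the colour giving log2(FPKM + 1). Mbp, Mag and Hoxc12 are dark in cultures 4 and 5, Hba1, Hba2 and Hbe1 are bright in culture 5, and Krt18 is bright in culture 1.

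Promoters were looked up for genes that moved together, to show the sequence that these orders concern. Of the 20 most variable named genes, 12 had an entry among the RefSeq promoters (assembly GRCr8, which is not the build of the FPKM table). Each entry holds 250 bases before and 50 bases after the gene's start, 5′ to 3′ on the gene's strand. For the oligodendrocyte genes the letters ACAAAG, a core bound by SOX factors, were searched on both strands, and for the embryonic globins CCAAT, the box bound by NF-Y. A capital stretch marks each match of the letters searched in that gene. The letters searched in the other genes were not marked there.
Mag (chr1:95290995-95291294, minus strand): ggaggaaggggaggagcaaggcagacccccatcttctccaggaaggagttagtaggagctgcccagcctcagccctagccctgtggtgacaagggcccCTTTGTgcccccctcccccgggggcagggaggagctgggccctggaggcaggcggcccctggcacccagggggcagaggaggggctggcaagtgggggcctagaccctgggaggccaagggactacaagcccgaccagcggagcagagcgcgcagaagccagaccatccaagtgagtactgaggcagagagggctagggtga
Plxnb3 (chrX:156646624-156646923, plus strand): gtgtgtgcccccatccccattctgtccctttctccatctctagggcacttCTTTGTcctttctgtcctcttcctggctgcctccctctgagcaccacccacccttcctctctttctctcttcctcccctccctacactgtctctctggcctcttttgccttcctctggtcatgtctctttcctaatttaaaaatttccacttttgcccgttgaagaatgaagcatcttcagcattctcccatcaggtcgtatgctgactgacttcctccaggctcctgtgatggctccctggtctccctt
Hbe1 (chr1:167696231-167696530, minus strand): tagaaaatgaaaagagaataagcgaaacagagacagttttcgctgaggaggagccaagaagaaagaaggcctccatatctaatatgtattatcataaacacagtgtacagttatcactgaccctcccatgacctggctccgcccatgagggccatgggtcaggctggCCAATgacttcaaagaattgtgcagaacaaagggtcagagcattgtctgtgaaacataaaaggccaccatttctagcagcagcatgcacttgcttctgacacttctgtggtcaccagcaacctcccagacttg
Hbz (chr10:15849708-15850007, minus strand): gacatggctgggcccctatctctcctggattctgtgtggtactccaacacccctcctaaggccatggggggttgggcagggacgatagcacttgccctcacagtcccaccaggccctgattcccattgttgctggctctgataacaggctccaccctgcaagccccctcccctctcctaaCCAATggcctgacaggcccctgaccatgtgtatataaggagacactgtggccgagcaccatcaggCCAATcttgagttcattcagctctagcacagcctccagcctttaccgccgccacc

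In Mag the match began 152 bases before the start and in Plxnb3 200 bases before it, both on the opposite strand, where the printed letters are the reverse complement. In Hbe1 a CCAAT began 83 bases before the start, and in Hbz a pair began 70 and 5 bases before it. The Hbe1 promoter also holds ACAAAG, left in small letters because only CCAAT was searched in it, so ACAAAG was not particular to the oligodendrocyte genes shown. Of 33469 rat promoters in the table, 18.8% held ACAAAG and 37.5% held CCAAT on either strand, so such matches are common. These 4 were shown because of their matches, and the matches describe letters, not binding.

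Over all genes, 986 of 11653 (8.46%) differed 2-fold or more between untreated cultures. Some orders had another share among them than among all genes, and some had nearly the same share. Each gene was put in a class by the widest gap between its ordered log2 values. In 211 of the 986 (21.4%) cultures 2 and 3 stood high, a class that held 5.29% of all 11653 genes. In 209 (21.2%, against 6.44% of all genes) culture 2 alone stood high. Cultures 4 and 5 stood low in 129 (13.1%, against 5.93%) and high in 117 (11.9%, against 11.4%). Culture 1 stood low in 80 (8.11%, against 9.01%) and high in 39 (3.96%, against 5.45%), and culture 2 stood low in 43 (4.36%, against 14.7%).

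The same orders could be read in treated cultures that carry the same replicate numbers, which are other libraries. Of the 129 genes low in untreated cultures 4 and 5, libraries 4 and 5 were below libraries 1, 2 and 3 for 127 (98.4%) in the polyP group and for 128 (99.2%) in the mutSOD1-ACM group. Over all 11653 genes the shares were 22.5% and 26.5%. Of the 117 genes high in untreated cultures 4 and 5, the order held for 105 (89.7%) with polyP and 111 (94.9%) with mutSOD1-ACM, against 32.3% and 35.0% of all genes. For genes high in culture 2 alone it held for 8 of 209 (3.83%) with polyP and 4 of 209 (1.91%) with mutSOD1-ACM, below the 16.7% and 15.5% of all genes. For genes high in cultures 2 and 3 it held for 52 of 211 (24.6%) and 94 of 211 (44.5%), against 10.7% and 8.25%.

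Single genes show how the numbers lined up. In untreated cultures Krt18 stood at 18.1 FPKM in culture 1 and at most at 1.38 FPKM in the others, whereas among treated cultures it was high in replicates 1 and 2 of polyP (12.9 and 16.4 FPKM) and of mutSOD1-ACM (19.7 and 20.4 FPKM). Untreated culture 2 thus differed from untreated culture 1 in this gene, for which replicates 1 and 2 of polyP and of mutSOD1-ACM were all high. Hba1 followed no such order: besides 246 FPKM in untreated culture 5, its highest value was 134 FPKM in mutSOD1-ACM replicate 2.

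The nearest library to each untreated culture was a treated one. Untreated culture 1 had an r across genes of 0.983 with its nearest untreated culture, number 3, and of 0.995 with mutSOD1-ACM replicate 1, and 6 of the 14 treated libraries were nearer to it than any untreated culture. For untreated cultures 2, 3, 4 and 5 the nearest treated library had r of 0.986, 0.995, 0.995 and 0.996, and the nearest untreated one 0.985, 0.985, 0.994 and 0.994. Each untreated culture had more treated libraries (14) than untreated ones to be compared with, which alone favours a treated library as the nearest. These correlations are across genes of the same tissue and are given without a test.

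**Figure D5:**
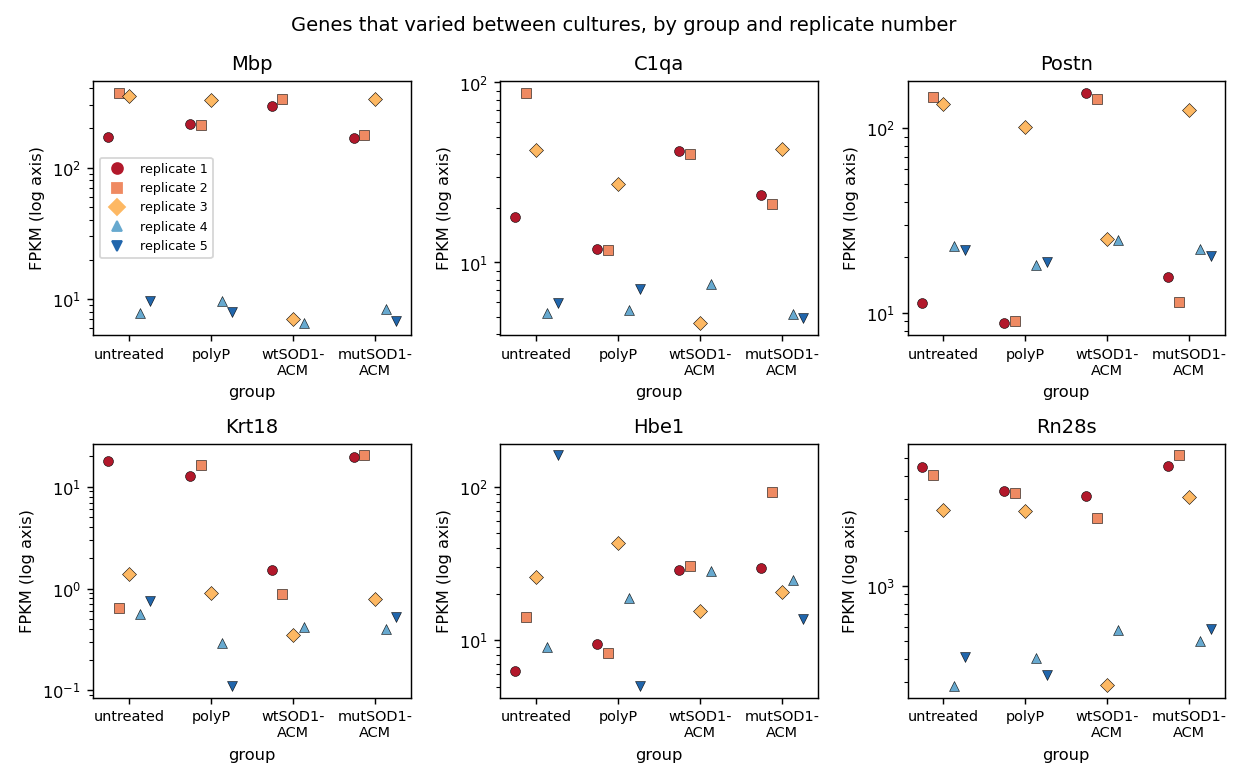
FPKM (log axis) of 6 genes that varied between untreated cultures, in the untreated group and then the treated groups, with replicate numbers by colour and marker. For Mbp and Rn28s, replicates 4 and 5 (3 and 4 of wtSOD1-ACM) lie below the rest in every group, while untreated replicate 2 parts from replicate 2 of polyP and mutSOD1-ACM for Postn and Krt18.

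The number of genes that separated the untreated cultures from the treated ones depended on how this structure was handled. With limma on log2(FPKM + 1), untreated minus the mean of the 3 treated groups, 4 of 11887 genes were higher in untreated cultures (0.0337%) and 19 lower (0.16%) at an adjusted p under 0.05. This fit takes no account of the replicate numbers or of the 2 sets of libraries, those that resemble cultures 1 to 3 and those that resemble cultures 4 and 5, and there were 554 calls with the replicate number as a block and 1543 with the set as a term. Of 376 distinct list genes tested 1 was higher, Egr1, and 0 were lower, while 2219 of all genes had an unadjusted p under 0.05. Egr1, a zinc-finger factor induced by activity, had 56.96, 59.7, 69, 84.7 and 94.1 FPKM in untreated cultures and 20.97 to 73.9 FPKM in treated cultures (median 59.8). The group means were 25.9 FPKM with polyP, 70.3 with wtSOD1-ACM and 60.6 with mutSOD1-ACM, and the log2 difference was 0.57 (SE 0.11, limma adjusted p = 0.0462). Herpud1, a protein of the endoplasmic reticulum stress response, had 50.1, 48.7, 46.3, 46.3 and 48.2 FPKM in untreated cultures and 33.1 to 43.4 FPKM in treated ones, with no overlap (0.28, limma adjusted p = 0.0292). Chac1, a glutathione-degrading enzyme of the same response, had 45.04, 45.01, 52.1, 52.03 and 57.4 FPKM in untreated cultures and 25.6 to 47.1 FPKM in treated ones, which overlapped (0.50, limma adjusted p = 0.0344). The other gene was Mir1896, a microRNA precursor whose short length makes its FPKM uncertain.

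The lower genes were mostly set by a single treated group. Cxcl1, a neutrophil chemokine, had 2.76, 3, 2.16, 3.26 and 2.93 FPKM in untreated cultures, and its means were 91.6 FPKM with wtSOD1-ACM, 1.91 with polyP and 2.58 with mutSOD1-ACM (-1.36, limma adjusted p = 2.09e-05). Ccl2, a monocyte chemokine, had 2.82, 8.10, 5.12, 2.58 and 2.79 FPKM in untreated cultures, and its means were 134 FPKM with wtSOD1-ACM, 3.02 with polyP and 4.02 with mutSOD1-ACM (-1.45, limma adjusted p = 0.0344). Nfkbia, an inhibitor of NF-κB, and Pgf, placental growth factor, had log2 differences of -0.59 and -0.56 and likewise their highest mean with wtSOD1-ACM. Smad7, an inhibitor of TGF-β signalling, had a log2 difference of -0.34, which pools opposite directions. Its mean was 6.67 FPKM in untreated cultures, 5.05 with polyP, 12.1 with wtSOD1-ACM and 10.5 with mutSOD1-ACM. Tsen15, Cks2, Taf13, Sfr1 and Npm1, genes of RNA processing, the cell cycle, transcription, DNA repair and the nucleolus, had differences of -0.30 to -0.26 and their highest mean with polyP.

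The pooled count depended on single libraries: leaving out 1 library gave 1 to 395 calls, with 1 without untreated replicate 4 or without wtSOD1-ACM replicate 1 and 395 without untreated replicate 5. Leaving out any library other than wtSOD1-ACM replicate 4 or mutSOD1-ACM replicate 4 moved the count by over 1.5 times. Within the libraries that resemble cultures 1 to 3 the differences were 0.28 for Egr1, 0.25 for Herpud1, 0.40 for Chac1, -1.58 for Cxcl1 and -1.32 for Ccl2. Within those that resemble cultures 4 and 5 they were 1.01, 0.30, 0.62, -1.08 and -1.71 in the same order, so each direction was the same in both sets. In the first set alone Cxcl1 passed the threshold (limma adjusted p = 0.00221) and the other 4 did not (each 0.247), and in the second set alone all 5 passed. Of 28 alternative fits, Cxcl1 passed the threshold in 27, Herpud1 in 24, Ccl2 in 20, Chac1 in 19 and Egr1 in 9.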

How the data were processed

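RNA from 19 rat spinal cord cultures was sequenced after a TruSeq poly(A) preparation, per the labels' protocols, as strand-specific reads, per the series design. The authors deposited FPKM per gene with 2 decimals in a single table of 15597 genes, per the file headers. Reads were aligned with HISAT to rn6, per the submitters' processing notes, and the sources used here give neither the tool nor the annotation behind the FPKM. FPKM sums ran from 446366 to 479964 in the untreated cultures. Absolute depth is unknown. Relative depth was estimated from 93 genes detected in few libraries: 98.2% of their 814 values came out as whole fragments, with a tolerance of 0.1, in the same data used for the estimate.

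The 39 marker lists (532 entries, 494 in the table) and the tests were chosen with earlier results of these data known. Of the entries, 38 are not analysed here, and 5 were matched by gene ID or synonym. Named were the 20 most abundant genes, of each list the first 2 and the 4 highest members, all Hox and regional factors, the 20 most and 10 least variable genes, and at most 10 called genes each way. Some of these are not reported here. Slc6a5, Isl1, Isl2, Mnx1, Gata3, Pax6, Mog, Pmp2, Myh11, Glra1, Grin2b, Krt8, Igf2, Lum, Hbz and Alas2 lie outside this rule and were chosen after their values were seen.

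Summaries were computed in Python 3.11.15 (pandas 2.3.3, numpy 2.4.6). Untreated cultures were compared with the mean of the 3 treated groups with limma 3.58.1 (statmod 1.5.0, R 4.3.3) on log2(FPKM + 1), with trend and robust moderation, for genes at 1 FPKM or more in at least 4 of 19 libraries. P-values are two-sided and Benjamini-Hochberg adjusted, with a threshold of 0.05. They measure the spread between cultures that the labels call independent, which may be partly technical. Tested on simulated data of 11887 genes, the fit recovered 98% of genes changed by 1 on the log2 scale. It recovered 80% of those changed by 0.5, with 6.32% of its calls false. The simulated noise was independent between libraries, without the sets of libraries seen here. The changed genes were drawn from those of higher level. These rates therefore do not carry over to the real contrast. Alternatives changed the pseudocount, filter, scaling, replicate block and each library.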

Additional observations from a re-analysis of the deposited data

Results flagged for a closer look

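In 19 of 274 results tested over the 5 untreated cultures, 1 culture lay farther from the rest than Dixon's 95% limit for 5 values allows, which chance alone gives for about 1 in 20 results. The values below are the FPKM of the culture that stood apart, with the range of the other 4.

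Culture 2 was lowest for several neuronal genes and lists and for 3 trunk Hox genes. It had 97.0 FPKM of Vamp2 (others 131 to 146) and 68.2 FPKM of Rab3a (108.8 to 127). Its pan-neuronal list summed to 1862 FPKM (2696 to 3092), its synaptic vesicle list to 609 FPKM (815 to 884) and its dorsal interneuron list to 68.2 FPKM (90.8 to 101.1). Hoxa7 stood at 13.9 FPKM (18.5 to 19.6), Hoxb7 at 32.8 FPKM (44.6 to 50.4) and Hoxb8 at 185 FPKM (259 to 287). Culture 2 was highest for Eng at 11.6 FPKM (5.31 to 6.56) and for Slc12a2 at 29.7 FPKM (20.8 to 22.9).

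Culture 1 was highest for Krt18 at 18.1 FPKM (0.56 to 1.38), Col3a1 at 350.1 FPKM (226 to 254), Chrna4 at 21.2 FPKM (13.5 to 14.8) and Pgf at 4.92 FPKM (3.31 to 3.55). It was lowest for Gria2 at 30.6 FPKM (40.8 to 43.9), Avil at 0.73 FPKM (1.05 to 1.16) and Gfm1 at 15.8 FPKM (16.3 to 16.4). The ependyma and choroid plexus list was lowest in culture 3 at 20.7 FPKM (23.1 to 23.9), and Sft2d1 was highest in culture 4 at 48.7 FPKM (47.0 to 47.4).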

How the results depend on the processing

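The count of 23 genes called between untreated and treated cultures (4 higher, 19 lower) stayed at 23 with a pseudocount of 0.1 and was 16 without a filter on low values. It was 12 after quantile normalization (5 higher, 7 lower) and 6 after scaling to equal summed FPKM (3 higher, 3 lower), which also changed the split of directions. It was 0 when all treated libraries formed 1 group (1191 genes at an unadjusted p under 0.05). With the replicate block it was 554 (131 higher, 423 lower). Same-numbered libraries of different groups deviated together in 22 of 27 pairs (correlation over 0.1, median 0.64, range -0.72 to 0.79). Libraries with other numbers did so in 39 of 108 pairs (median -0.41, range -0.80 to 0.81). Closest to their own number in another group were 9 of 19 libraries. The numbers thus followed shared deviations in part. The labels do not say that they pair the samples, and the main fit leaves them out. Chosen after seeing the data, the set of the library as a term gave 1543 calls (450 higher, 1093 lower), the set of untreated cultures 1 to 3 alone gave 2 and that of cultures 4 and 5 alone 302. Leaving out each library in turn gave 1 to 395. The cause of these shifts was not tested.

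The 986 genes that differed 2-fold between untreated cultures became 555 at a mean FPKM of 5 or more, where fewer genes qualify, 1459 with a ratio of FPKM + 0.1, 1053 after scaling to equal summed FPKM and 953 after quantile normalization. Among fewer samples they were 524 (cultures 1 to 3) and 38 (cultures 4 and 5), and 683 to 923 without 1 culture. The share of the first principal component was 56.8% to 77.9% without 1 culture, the highest without culture 1. The number of genes detected in all 5 cultures was 8770 to 11704 over the alternatives, and the share of the top 100 genes 19.7% to 20.3%. The median summed level of the myelinating oligodendrocyte list, 381 FPKM, was 228 FPKM without culture 2 or 3, and that of the microglia and macrophage list, 188 FPKM, was 304 FPKM without culture 4 or 5. Of the 14 named called genes under 28 alternatives, 200 results kept their side of the threshold, 192 lost it and 0 reversed. Absolute depth is unknown, so counting error cannot be given, and it weighs most on genes near 1 FPKM.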

Other observations

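Several genes that no list held also differed between the untreated cultures, and they were chosen after their values were seen. Npvf, which encodes neuropeptides of the RFamide family, had 94.2, 28.1, 10.6, 80.4 and 76.5 FPKM in cultures 1 to 5, low in cultures 2 and 3. In treated cultures it was 18.1 FPKM in polyP replicate 3, 18.9 FPKM in mutSOD1-ACM replicate 3 and 13.6 and 11.6 FPKM in wtSOD1-ACM replicates 1 and 2, against 54.5 to 101.3 FPKM in the other 10 treated libraries. Spp1 (osteopontin) had 31.4, 334, 178, 75.8 and 84.6 FPKM, and Fgf5, a fibroblast growth factor, 0.39, 10.8, 12.7, 2.15 and 1.35 FPKM, both lowest in culture 1. Gpnmb, a glycoprotein of macrophages and other lysosome-rich cells, had 116, 469.9, 228, 59.1 and 59.5 FPKM, and Mpeg1, a pore-forming protein of macrophages, 22.5, 127, 64.3, 12.8 and 12.6 FPKM.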
